A study of Drosophila melanogaster with 28 samples.

Results

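Drs, Drsl5, Mtk, IM1, IM4, IM14, AttA, PGRP-SA, PGRP-SD and Tep4 are genes of the insect innate immune response, and their mRNA was followed here in Drosophila melanogaster embryos. They are 10 of the 17558 genes counted at 14-16 h of development and 10 of the 17753 counted at 16-18 h. The genes were chosen by their symbols, and they were selected on values of these same libraries, because some of them stood high or low in mutants against the w1118 control. Levels against w1118 are therefore given as a description with no test. The members were tested only between mutant groups, in contrasts that leave w1118 out, though its libraries shared the fit.

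Flies defend themselves with secreted peptides that fat body cells, hemocytes and epithelia release after infection. In the Toll pathway, circulating recognition proteins such as PGRP-SA sense microbial cell wall and start a protease cascade that ends in cleavage of the ligand Spatzle, and the NF-kappaB factors Dif and dorsal then switch on peptide genes such as Drs and IM1. In the Imd pathway, membrane and intracellular PGRP proteins sense DAP-type peptidoglycan and act through the NF-kappaB factor Relish on genes such as AttA and the diptericins. Toll itself has an earlier role in the embryo, where it patterns the dorsoventral axis.

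Mutant embryos were sorted from the progeny of heterozygous flies by shape and by the lack of a GFP-marked balancer, and several were pooled for each library. The libraries at 14-16 h were nej3 (n = 4), nejEP1179 (n = 4) and w1118 (n = 4). nej encodes the acetyltransferase CBP, nej3 is a mutant allele of it and nejEP1179 is a P-element insertion at it. The libraries at 16-18 h were labelled Dfd1 (n = 2), ez731 (n = 3), psce22 (n = 2), psch27 (n = 3), SppsG8810 (n = 3) and w1118 (n = 3). Dfd is a Hox gene, E(z) encodes the H3K27 methylase of PRC2, Psc encodes a core protein of PRC1, both being Polycomb repressive complexes, and Psc is named in the labels by alleles e22 and h27, and Spps encodes a zinc-finger factor linked to Polycomb recruitment, carried here as a P-element insertion. The w1118 embryos came from a separate stock without a balancer, so genotype and stock background cannot be told apart. No source says that replicates were separate cultures, so a p-value covers no more than the spread between these libraries.

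The labels at 16-18 h were at odds with the comparisons the authors made from the same counts. The mean normalized count of each deposited comparison was recomputed from 364 sets of columns. The authors' comparison named ez731 matched columns psce22 1 and 2 with psch27 1, and that named psce22 matched psch27 2 and 3. The comparison named psch27 matched the 3 columns labelled SppsG8810, and that named SppsG8810 matched the 3 labelled ez731. Psc itself was at 325.5 ± 12.4 CPM (SD, n = 3) in the libraries labelled SppsG8810 and at 27.8 ± 3.74 CPM (n = 3) in w1118. In psch27 Psc was at 86.6 ± 59.4 CPM (n = 3), with libraries from 18.15 to 124.4 CPM, and in psce22 at 21.1 ± 1.74 CPM (n = 2). Spps was at 15.0 ± 0.211 CPM (n = 3) in SppsG8810 and 14.65 ± 0.345 CPM (n = 3) in w1118. Dfd was at 8.61 ± 1.88 CPM (n = 2) in Dfd1 and 18.6 ± 0.454 CPM in w1118. E(z) was at 20.5 ± 1.22 CPM (n = 3) in ez731, 15.2 ± 0.952 CPM (n = 2) in psce22 and 24.1 ± 1.06 CPM (n = 3) in w1118. In psch27 E(z) was at 21.9 ± 5.44 CPM (n = 3), with libraries from 15.73 to 25.94 CPM. It was at 29.05 ± 3.03 CPM (n = 2) in Dfd1 and 25.3 ± 0.339 CPM (n = 3) in SppsG8810. The groups at 16-18 h are therefore named by label, and no direction is tied to the labelled genotype. Values of psch27 are given with replicate 1, and for several genes and lists also without it. The comparisons named Dfd1, nej3 and nejEP matched their own columns, and nej was at 241 ± 10.2 CPM (n = 4) in nej3, 409 ± 72.5 CPM (n = 4) in nejEP1179 and 253.6 ± 11.7 CPM (n = 4) in w1118.

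Total counts ran from 13129082 to 21509453 per library at 14-16 h and from 17940038 to 22354257 at 16-18 h. The level of a gene is given as CPM, its count per 1000000 counts of that library, and changes are log2 fold changes ± SE from edgeR. CPM is not corrected for gene length, so levels are compared between libraries and not between genes. A floor of 3 counts over a group came to 0.0408 CPM in nej3 and 0.0486 CPM in w1118 at 16-18 h, and it covers counting error only, since the reads carry no molecular identifiers. After the filter on low counts 4 of the 10 genes were tested at 14-16 h (Drsl5, IM1, PGRP-SD and Tep4) and 10 of 10 at 16-18 h. The others were too low at 14-16 h to be followed. In these bulk samples fewer cells of a type and less RNA per cell cannot be told apart.

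At 14-16 h the largest differences from w1118 among these genes were in Tep4 and PGRP-SD. PGRP-SD (FBgn0035806, 3L 7651180 to 7651900 on dm6, plus strand) encodes a secreted peptidoglycan recognition protein. In nej3 it was at 2.88, 2.64, 4.01 and 2.34 CPM, and in nejEP1179 at 2.23, 2.27, 2.01 and 1.68 CPM. In w1118 it was at 21.4, 19.9, 22.4 and 21.0 CPM. All 8 mutant libraries lay below all 4 control libraries. The log2 change was -2.79 ± 0.13 in nej3 and -3.31 ± 0.13 in nejEP1179. PGRP-SD overlaps CG7492 on the minus strand and CG32373 on the plus strand, and the strand of counting is not given in the sources used here, so reads can be shared between them.

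Tep4 (FBgn0041180, 2L 19548507 to 19556451, plus strand) encodes a thioester-containing protein related to vertebrate complement. In w1118 it was at 17.4, 14.5, 15.9 and 13.4 CPM. In nej3 it was at 112.4, 105.3, 118.0 and 111.9 CPM, and in nejEP1179 at 115.2, 117.6, 104.5 and 122.2 CPM. Every mutant library was above every control library, with a log2 change of 2.90 ± 0.07 in nej3 and 2.95 ± 0.07 in nejEP1179. In w1118 at 16-18 h, counted in a separate table with another annotation release, Tep4 was at 119.5 ± 10.2 CPM (n = 3) against 15.3 ± 1.74 CPM (n = 4) at 14-16 h. Age and table cannot be told apart, so no test was made between them.

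Drsl5 (FBgn0035434, 3L 3316781 to 3317144, plus strand) belongs to the drosomycin family and lies 52411 bases from Drs. It was at 19.2, 12.1, 24.4 and 16.6 CPM in nej3 and at 13.8, 10.8, 13 and 6.70 CPM in nejEP1179. In w1118 it was at 41.2, 48.1, 35.8 and 46.1 CPM. The groups did not overlap, and the log2 change was -1.21 ± 0.22 in nej3 and -1.89 ± 0.23 in nejEP1179. In w1118 PGRP-SD and Drsl5 differed between ages in opposite directions: PGRP-SD was lower at 16-18 h (5.25 ± 0.521 CPM) than at 14-16 h (21.2 ± 1.06 CPM), and Drsl5 was higher (143.0 ± 13.2 against 42.8 ± 5.51 CPM). Side by side and untested, the nej groups lay near the 16-18 h w1118 level for Tep4 and away from it for Drsl5. PGRP-SD went past that level, at 1.68 to 4.01 CPM in the nej libraries against 4.74 to 5.78 CPM in w1118 at 16-18 h.

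IM1 was near the limit of detection at 14-16 h. It was at 0.814, 0.199, 0.251 and 0.972 CPM in nej3 and 0.669, 0.944, 0.566 and 0.381 CPM in nejEP1179. In w1118 it was at 0.147, 0.191, 0.465 and 0.280 CPM, and the ranges of the groups overlapped. The remaining 6 genes stayed at or below 0.343 CPM in every library of that age. Drs was at 0 in all 4 nej3 libraries, which a floor of 3 counts limits to 0.0408 CPM, and it had 7 counts in nejEP1179 and 2 in w1118. In each nej group 1 of the 10 genes lay above and 2 lay below every control library. Over all genes tested, 12.3% were called higher and 11.7% lower in nej3, and 12.6% higher and 12.3% lower in nejEP1179. These shares are edgeR calls and not shares of genes lying beyond every control library, which were not computed. They are given as background only, since the genes were selected on this comparison.

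**Figure D1:**
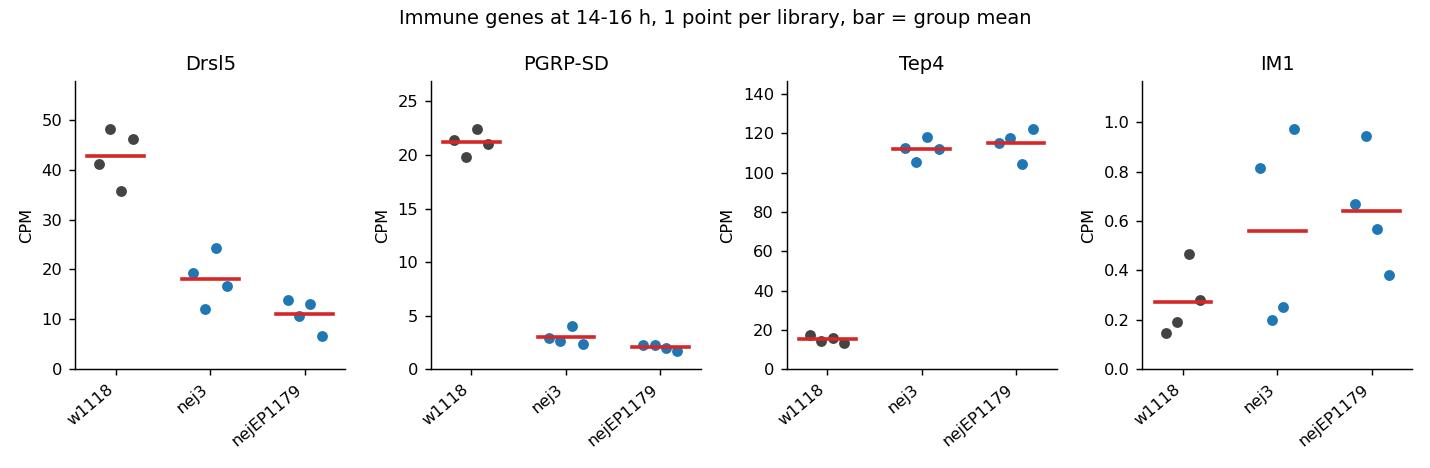
CPM of Drsl5, PGRP-SD, Tep4 and IM1 in each library at 14-16 h, with a panel and a linear axis from 0 for each gene, points for libraries (grey for w1118) and red bars for group means. The w1118 points stand apart from both nej groups for Drsl5, PGRP-SD and Tep4, and the groups overlap for IM1.

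The alleles were compared with each other to see whether nej3 and nejEP1179 differed. Of the 4 genes tested, PGRP-SD passed, with a log2 difference of 0.52 ± 0.15 (nej3 higher, edgeR adjusted p = 0.045), beside 9.3% of all genes called in either direction. Leaving out 1 library at a time gave differences of 0.35 to 0.62, and 6 of 8 such fits did not pass (adjusted p = 0.019 to 0.25). The difference thus did not hold up against the loss of single libraries. Fitted on only the nej groups, without the w1118 libraries, it was 0.53 and did not pass (edgeR adjusted p = 0.14). Drsl5 was 0.68 ± 0.24 higher in nej3 and did not pass (adjusted p = 0.11). Tep4 (log2 difference -0.04 ± 0.07, adjusted p = 0.74) and IM1 (-0.30 ± 0.47, adjusted p = 0.75) did not pass either.

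At 16-18 h the peptide genes were high in some libraries and near 0 in others, and libraries of the same label could lie far apart. IM1, the Bomanin peptide gene BomS1 (FBgn0034329, 2R 18383949 to 18384378, plus strand), is a Toll target. It was at 0.0997, 0.138 and 1.26 CPM in w1118, 13.6 and 3.71 CPM in Dfd1 and 15.2, 2.97 and 2.83 CPM in ez731. It was at 0.0982 and 0.0955 CPM in psce22, at 0.291, 22.2 and 15.2 CPM in psch27, and at 2.68, 1.27 and 1.39 CPM in SppsG8810. The order of the group means was psch27, Dfd1, ez731, SppsG8810, w1118 and psce22, and the ranges of psch27, Dfd1 and ez731 overlapped. Replicate 1 of psch27 lay with w1118 and psce22, and replicates 2 and 3 averaged 64.1-fold more IM1 than replicate 1. Against w1118 the log2 change of psch27 was 4.69 ± 1.34, and 5.27 ± 1.03 without replicate 1.

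IM4 and IM14 encode the Daisho peptides, which defend against filamentous fungi, and lie 1070 bases apart on opposite strands of 2R. IM4 (FBgn0040653, 2R 20868496 to 20869321, minus strand) was at 1.15, 0.780 and 4.32 CPM in w1118, 37.3 and 6.82 CPM in Dfd1 and 39.9, 8.62 and 8.02 CPM in ez731. It was at 0.589 and 0.573 CPM in psce22, 0.971, 54.3 and 31.7 CPM in psch27 and 11.4, 7.32 and 7.50 CPM in SppsG8810. Dfd1, ez731 and SppsG8810 lay above w1118 in every library, psce22 lay below it, and psch27 spanned it. Its log2 change was 3.25 ± 1.26 in Dfd1, 3.22 ± 1.20 in ez731, 2.08 ± 1.19 in SppsG8810 and 3.84 ± 1.21 in psch27 (4.41 ± 0.97 without replicate 1).

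IM14 (FBgn0067905, 2R 20870392 to 20870678, plus strand) showed the same order of group means. Its log2 changes were smaller than those of IM4 in the groups with means above w1118 and larger in psce22. It was at 1.25, 1.70 and 2.41 CPM in w1118, 9.62 and 2.52 CPM in Dfd1 and 6.91, 3.73 and 2.50 CPM in ez731. It was at 0.246 and 0.143 CPM in psce22, 0.680, 17.1 and 8.80 CPM in psch27 and 2.73, 3.05 and 1.93 CPM in SppsG8810. The highest w1118 library was close to the lowest libraries of Dfd1 and ez731, and SppsG8810 overlapped w1118. The log2 change of psce22 was -3.21 ± 1.35 and that of psch27 2.34 ± 0.84, or 2.88 ± 0.55 without replicate 1.

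Drs, which encodes the antifungal peptide drosomycin (FBgn0010381 at 14-16 h and FBgn0283461 at 16-18 h, 3L 3369556 to 3369942, plus strand), is the standard readout of Toll signalling in the adult fly. It was at 0.200, 0 and 0.101 CPM in w1118, which is 6 counts in all. It was at 18.2 and 4.83 CPM in Dfd1 and at 22.2, 2.47 and 3.17 CPM in ez731. Both groups lay above every w1118 library, and the log2 change was 6.63 ± 1.31 in Dfd1 and 6.50 ± 1.27 in ez731, or 4.85 ± 1.0 without replicate 1 of ez731. It was at 1.12, 3.49 and 1.10 CPM in psch27, 0.224, 0.153 and 0.803 CPM in SppsG8810 and 0.196 and 0.0477 CPM in psce22. psch27 lay above w1118 in all 3 libraries, replicate 1 included, and the other groups overlapped it.

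Mtk and AttA were rare transcripts throughout. Mtk (FBgn0014865, 2R 15408846 to 15409113, plus strand, overlapping Stacl on the same strand) encodes the antimicrobial peptide metchnikowin. It was at 5.74, 0.857 and 0.720 CPM in ez731, 1.19 and 0.483 CPM in Dfd1 and 0.0997, 0.367 and 0.101 CPM in w1118. Its log2 change in ez731 was 3.63 ± 0.83, and 2.08 ± 0.59 without replicate 1. In psce22, psch27 and SppsG8810 it stayed at or below 0.573 CPM and overlapped w1118.

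AttA (FBgn0012042, 2R 14747362 to 14748215, plus strand) encodes the antibacterial peptide attacin A. It had no count in the 3 w1118 libraries. It was at 1.33 and 0.269 CPM in Dfd1, 1.95, 0.101 and 0.0480 CPM in ez731 and 0.0971, 0.236 and 0.321 CPM in psch27. Against a floor of 3 counts over the w1118 group these means were at least 16.4-fold, 14.4-fold and 4.48-fold higher. In SppsG8810 and psce22 it had 2 and 1 counts, under the floor. AttA has a near-identical neighbour, AttB, so reads of the pair can be exchanged and its level is uncertain.

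**Figure D2:**
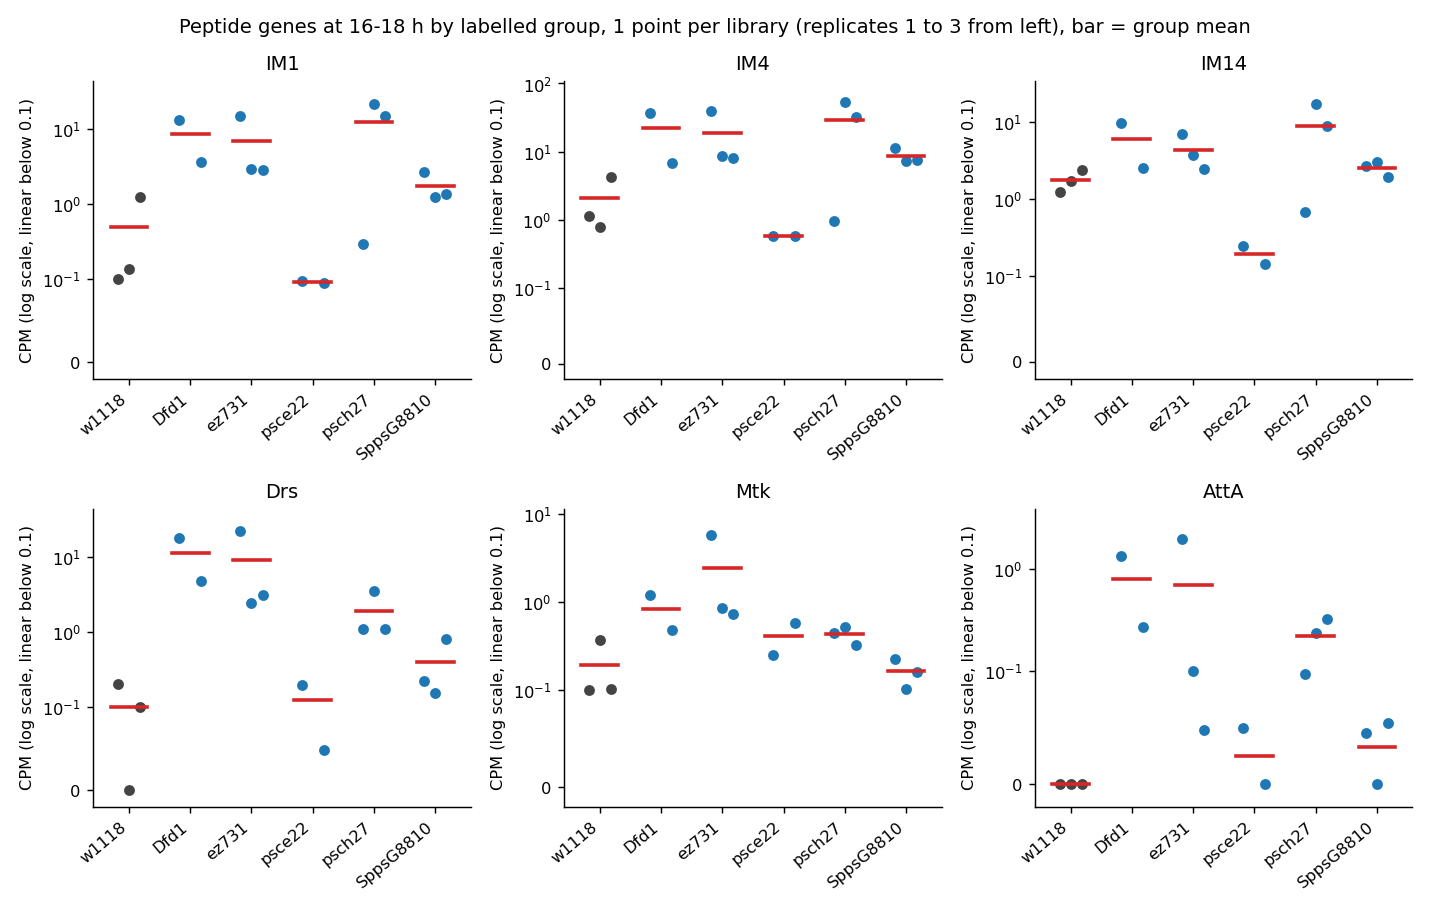
CPM of IM1, IM4, IM14, Drs, Mtk and AttA in each library at 16-18 h by labelled group, on log axes that turn linear below 0.1 CPM, with points for libraries (grey for w1118, replicate 1 leftmost) and red bars for group means. Replicate 1 lies above its fellows in Dfd1 and ez731 for all 6 genes, and for IM1, IM4 and IM14 replicate 1 of psch27 lies far below replicates 2 and 3.

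In Dfd1 and ez731 replicate 1 held more of the peptide transcripts than its fellows. Replicate 1 of ez731 held 26.2-fold the AttA, 7.89-fold the Drs, 7.28-fold the Mtk, 5.22-fold the IM1, 4.80-fold the IM4 and 2.22-fold the IM14 of the mean of replicates 2 and 3. Replicate 1 of Dfd1 held 3.77-fold the Drs, 3.66-fold the IM1 and 5.47-fold the IM4 of replicate 2. Over the same pairs Tep4 differed by 1.10-fold in ez731 and 0.986-fold in Dfd1, and PGRP-SA by 1.11-fold and 1.16-fold. Drsl5 differed by 2.57-fold in ez731 and 0.948-fold in Dfd1. In psch27 the gap ran the other way and was wider for the Bomanin and Daisho genes, with replicates 2 and 3 at 64.1-fold the IM1, 44.3-fold the IM4 and 19.0-fold the IM14 of replicate 1.

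Transcripts of adult females were high in these same libraries. The yolk protein genes Yp1, Yp2 and Yp3, made by adult fat body and ovary, summed to 1115 and 354 CPM in Dfd1 and to 1060, 86.2 and 76.5 CPM in ez731. They summed to 4.92 to 9.72 CPM in w1118, 4.11 to 9.33 CPM in psce22, 2.62 to 23.8 CPM in psch27 and 1.88 to 4.29 CPM in SppsG8810. A list of 9 chorion genes, which ovarian follicle cells use for the eggshell, summed to 2747 and 780 CPM in Dfd1, 247 CPM in replicate 1 of ez731 and 13.3 to 17.1 CPM in its other replicates, against 1.51 to 14.9 CPM in w1118. The chorion genes summed to 2.04, 63.9 and 19.2 CPM in psch27, 25.3 and 5.92 CPM in psce22 and 0.857 to 11.1 CPM in SppsG8810. Replicates 2 and 3 of psch27, which held more of the Bomanin and Daisho transcripts than replicate 1, thus also held more of the chorion and yolk protein transcripts. Both lists were chosen after the values were seen, and their part in the peptide levels of Dfd1, ez731 and psch27 was not tested.

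In psch27 replicates 2 and 3 and in SppsG8810 the Bomanin and Daisho transcripts were high relative to yolk protein transcripts. Summed IM1, IM4 and IM14 came to 393 and 363 CPM per 100 CPM of yolk protein transcripts in psch27 replicates 2 and 3 and to 391, 619 and 546 CPM in SppsG8810. The same ratio was 5.43 and 3.68 in Dfd1 and 5.85, 17.8 and 17.5 in ez731. In w1118 it was 25.6, 50.9 and 162 and in psce22 10 and 19.8. The peptide sum itself was 93.5 and 55.7 CPM in psch27 replicates 2 and 3 and 60.5 and 62.0 CPM in replicate 1 of Dfd1 and of ez731. For Drs the ratio was 42.6, 14.7 and 7.17 in psch27, 5.21, 8.11 and 40.5 in SppsG8810 and 2.05, 0 and 2.04 in w1118. It was 1.364 to 4.145 in Dfd1 and ez731. The yolk protein sums of SppsG8810 were low, at 1.88 to 4.29 CPM. The ratios were formed after the values were seen, and what they say of adult RNA was not tested.

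**Figure D3:**
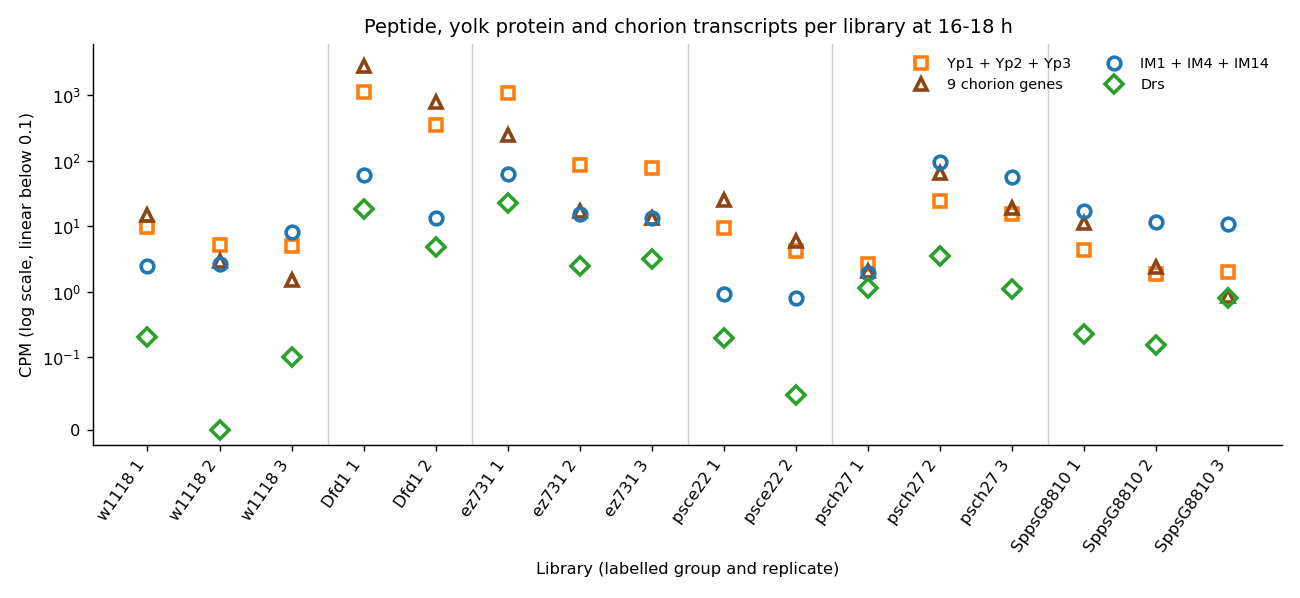
Summed CPM of the yolk protein genes, of 9 chorion genes and of IM1, IM4 and IM14, and CPM of Drs, in each of the 16 libraries at 16-18 h, on a log axis that turns linear below 0.1 CPM. Dfd1 and ez731 have the highest yolk protein sums, and psch27 2 and 3, w1118 3 and the SppsG8810 libraries have more of the 3 peptide transcripts than of yolk protein transcripts.

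Drsl5 did not follow Drs. It was at 138, 133 and 158 CPM in w1118, 121 and 127 CPM in Dfd1 and 131 and 152 CPM in psce22. It was at 2.79, 1.16 and 1.01 CPM in ez731 and at 14.0, 6.61 and 4.82 CPM in SppsG8810. Both of these groups lay far below w1118, with a log2 change of -6.41 ± 0.73 and -4.06 ± 0.62. psch27 was split, with 203 CPM in replicate 1 and 34.8 and 59.5 CPM in replicates 2 and 3. Its log2 change was -0.53 ± 0.53, and -1.57 ± 0.38 without replicate 1. Dfd1, which had the highest mean of Drs, was close to w1118 for Drsl5 (-0.36 ± 0.60).

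The replicates of Tep4 were close at 16-18 h. It was at 126, 124 and 108 CPM in w1118, 121 and 123 CPM in Dfd1 and 141 and 120 CPM in psce22, and these ranges overlapped. It was at 242, 241 and 199 CPM in ez731, 151, 211 and 224 CPM in psch27 and 197, 188 and 187 CPM in SppsG8810. These 3 groups lay above every w1118 library, with log2 changes of 0.98 ± 0.14, 0.73 ± 0.14 and 0.67 ± 0.14. Without replicate 1 that of psch27 was 0.89 ± 0.09. The ranges of ez731 and SppsG8810 did not overlap, and psch27 overlapped both. Replicate 1 of psch27 was again the lowest of its group.

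PGRP-SD was below w1118 in each labelled group at 16-18 h, as it was at 14-16 h. It was at 4.74, 5.78 and 5.23 CPM in w1118 and at 1.01 and 1.24 CPM in Dfd1, the lowest group. It was at 3.57, 2.32 and 2.35 CPM in ez731, 3.44 and 2.53 CPM in psce22, 1.89, 2.45 and 1.42 CPM in psch27 and 2.01, 2.64 and 1.98 CPM in SppsG8810. Among these 4 groups psce22 lay above psch27 without overlap, every other pair overlapped, and none reached w1118. The log2 changes ran from -2.38 ± 0.28 in Dfd1 to -0.86 ± 0.26 in psce22. The comparisons share the w1118 libraries, so a low value in each is not independent.

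PGRP-SA (FBgn0030310, X 11561643 to 11562779, plus strand), which encodes the Toll-side recognition protein for Lys-type peptidoglycan, was rare. It was at 0.299, 0.459 and 0.352 CPM in w1118 and at 1.17, 1.11 and 1.01 CPM in ez731, which lay above every other library. Dfd1 was at 0.687 and 0.591 CPM and psce22 at 0.638 and 0.239 CPM. psch27 (0.412 to 0.437 CPM) and SppsG8810 (0.305 to 0.492 CPM) overlapped w1118. The log2 change of ez731 was 1.60 ± 0.33 and was 1.58 ± 0.36 without replicate 1.

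**Figure D4:**
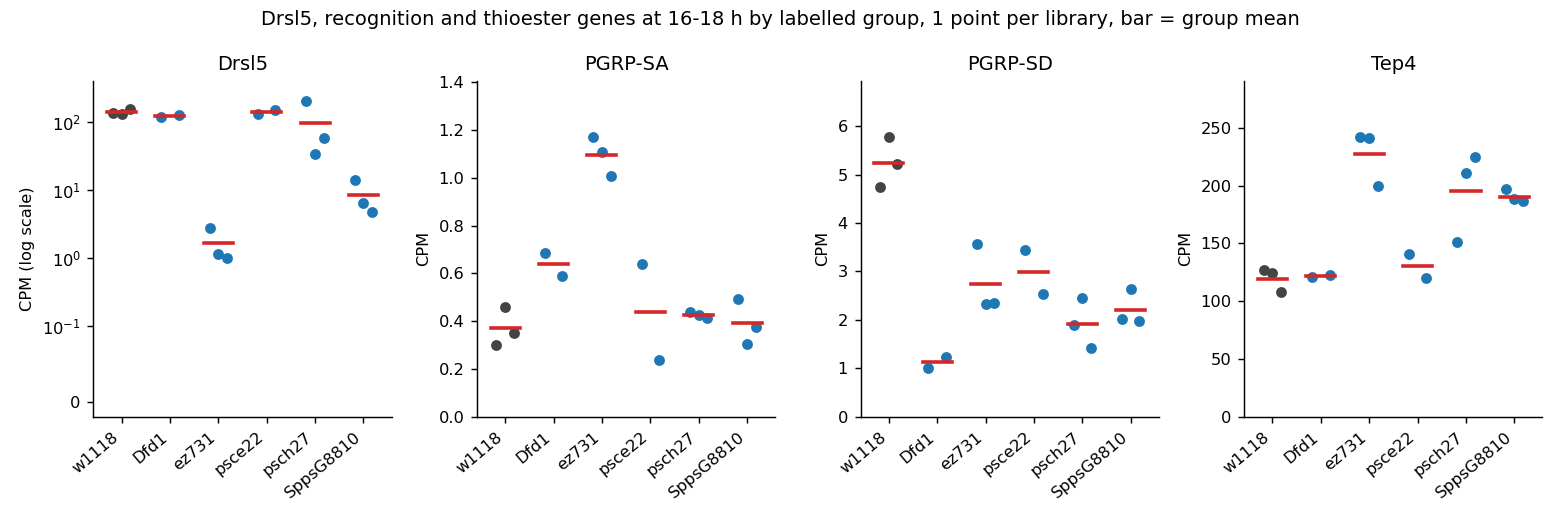
CPM of Drsl5 (log axis, linear below 0.1) and of PGRP-SA, PGRP-SD and Tep4 (linear axes from 0) in each library at 16-18 h by labelled group, with points for libraries (grey for w1118) and red bars for group means. Drsl5 is lowest in ez731 and SppsG8810, PGRP-SA is highest in ez731, PGRP-SD is highest in w1118, and psch27 replicate 1 is apart from replicates 2 and 3 for Drsl5 and Tep4.

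Counted over the 10 genes, 7 lay above and 2 below every w1118 library in Dfd1, where 25.5% of all genes tested were called higher and 27.0% lower. In ez731 8 lay above and 2 below, beside 13.2% and 15.8% of all genes. In psce22 none lay above and 4 lay below (IM1, IM4, IM14 and PGRP-SD), beside 17.7% and 21.9%. In psch27 3 lay above and 1 below, beside 3.48% and 4.0%, and without replicate 1 these became 6 and 2. In SppsG8810 3 lay above and 2 below, beside 3.43% and 5.43%. The shares are edgeR calls and not shares of genes lying beyond every w1118 library, which were not computed. The 2 measures cannot be set against each other. The members were selected on these contrasts, and nothing is read from the counts.

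Differences among the 5 labelled mutant groups were tested with an F test of edgeR across all genes. The contrast leaves w1118 out, though its libraries shared the fit. Of the 10 genes 8 passed, and 78.0% of all genes passed, so the share of members was near that of any gene. The members were picked for standing high or low in these mutants. Drs, IM1, Mtk, PGRP-SA and AttA, low in some groups, passed the filter mainly through the libraries where they are high. The counts of AttA lie mainly in replicate 1 of Dfd1 and of ez731. The adjusted p-values are therefore given as a description. The smallest adjusted p was that of Drsl5 (8.4e-05), followed by Tep4 (0.00022), Drs (0.0023), PGRP-SA (0.0033), PGRP-SD (0.0033) and Mtk (0.0057). IM14 (0.019) and IM1 (0.036) passed, and IM4 and AttA (0.065 each) did not. IM14 did not pass without psce22 replicate 1 (adjusted p = 0.083) or 2 (0.1), and IM1 did not pass in 6 of the fits with a library left out, among them those without psce22 replicate 1 (0.12) and 2 (0.13), nor with a replicate block (0.064).

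The genes whose levels followed a member most closely were found by the root mean square difference in log2 CPM, centred on w1118 of the same age, over 28 libraries and 8402 genes. Drsl5, PGRP-SD and Tep4 reached the minimum of 1 CPM at both ages. The closest to Tep4 were CG43797 (difference 0.435) and CG14715 (0.611), and the closest to PGRP-SD were CG6912 (0.574) and CG15892 (0.898). Those of Drsl5 were far, with Ada at 1.56 and CG10584 at 1.81.

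The pathway genes around the members were taken from 5 lists that leave the members out, and were tested against w1118. The lists were chosen with earlier results of these data known. Most genes named are those with the smallest adjusted p of their list, so their changes are picked extremes. At 14-16 h 59 of 101 list genes passed the filter. In nej3 13 rose and 8 fell, and in nejEP1179 12 rose and 6 fell, with a median log2 change over the 59 of 0.07 and 0.05 beside -0.01 and 0.00 over all genes. The background was 12.3% of all genes called higher and 11.7% lower in nej3, and 12.6% and 12.3% in nejEP1179. Of 18 Toll pathway genes 6 rose and 3 fell in nej3, and 4 rose and 3 fell in nejEP1179. The protease genes psh and SPE, which act upstream of Spatzle, rose in nejEP1179 by 1.19 ± 0.17 (adjusted p = 8.3e-05) and 0.74 ± 0.09 (2.7e-05). The kinase gene pll fell by 0.38 in nej3 (SE 0.07, adjusted p = 0.001), and dl, which encodes dorsal, rose by 0.37 ± 0.06 (0.00041).

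Of 19 Imd pathway genes 4 rose and 2 fell in nej3, and 5 rose and 1 fell in nejEP1179. PGRP-LA, a recognition gene of the Imd side, rose from 20.2 ± 0.706 to 41.0 ± 1.98 CPM in nejEP1179 (n = 4 each, log2 change 1.06 ± 0.06, adjusted p = 3.4e-09). pirk, an inhibitor of the pathway, rose by 0.96 ± 0.13 (7.3e-05) and Fadd, a death-domain adaptor, by 0.92 ± 0.14 (0.00016) in nejEP1179. PGRP-LE, an intracellular receptor, fell by 0.27 in nej3 (SE 0.07, adjusted p = 0.0074). Of 10 melanization genes PPO1 and PPO2, the prophenoloxidases of crystal cells, fell in both alleles. PPO2 fell from 447 ± 25.5 to 266 ± 17.7 CPM in nejEP1179 (log2 change -0.70 ± 0.06, adjusted p = 6.8e-07) and PPO1 from 299 ± 25.5 to 190 ± 12.6 CPM (-0.61 ± 0.07, 1.1e-05). Sp7 rose in nej3 by 0.62 ± 0.16 (0.012) and MP1 in nejEP1179 by 0.26 ± 0.07 (0.017), both proteases of that cascade.

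Of 10 thioester and JAK-STAT genes 2 rose and 1 fell in nej3 and 1 rose in nejEP1179. TotF, a stress-induced Turandot gene, rose by 1.42 ± 0.31 in nej3 (adjusted p = 0.0036) and Socs36E, a feedback inhibitor of JAK-STAT, by 0.19 ± 0.06 (0.027). The receptor gene dome rose by 0.29 ± 0.04 in nejEP1179 (0.00019), and Stat92E fell by 0.18 in nej3 (SE 0.05, 0.0094). Of the other immune peptide genes only 2 of 29 passed the filter. CG16712 rose in nejEP1179 (0.54 ± 0.19, adjusted p = 0.048) and IM2 passed in neither. Between the alleles 1 of the 59 genes was higher and 4 were lower in nej3.

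At 16-18 h 77 of 100 list genes were tested. Of 14 other immune peptide genes 7 rose and 1 fell in Dfd1, and 7 rose in ez731, where 25.5% and 13.2% of all genes were called higher. Only 14 of the 28 matched genes passed the filter, and several of them, near 0 in w1118, passed through the libraries where they are high, so the counts of this list lean upward by selection and are a description. The Bomanin gene IM2 rose in Dfd1 from 0.420 ± 0.204 to 9.17 ± 6.59 CPM (log2 change 4.26 ± 1.23, adjusted p = 0.013). DptB, a diptericin of the Imd side, rose in ez731 from 0.0959 ± 0.0438 to 1.04 ± 1.12 CPM (3.36 ± 0.84, 0.01) and CG18067 from 0.262 ± 0.166 to 17.6 ± 25.1 CPM (6.06 ± 1.31, 0.0056). The SD within these groups was near or above the mean. Without replicate 1 of ez731 the count fell from 7 of 14 to 1 of 10 tested, which was CG18067, and without replicate 1 of Dfd1 edgeR called 0 of 16 higher, with 1 at an unadjusted p under 0.05 (8 of 17 without replicate 2). DESeq2 on all libraries called 8 higher in Dfd1. The libraries left out are those with the highest yolk protein sums, whose part in these calls was not tested.

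In psch27 1 of 14 rose (Drsl2), and 5 of 14 without replicate 1 (CG15065, CG18107, Drsl2, IM2 and IM3). In psce22 1 fell, and edgeR called 0 higher (0 at an unadjusted p under 0.05, and 0 by DESeq2). In SppsG8810 edgeR called 0 of 14 (0 at an unadjusted p under 0.05, and 0 by DESeq2). IM33, at 111 ± 12.3 CPM in w1118, fell in Dfd1 to 29.7 ± 18.6 CPM (-2.07 ± 0.43, adjusted p = 0.002) and in psce22 to 43.1 ± 17.3 CPM (-1.42 ± 0.42, 0.021).

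**Figure D5:**
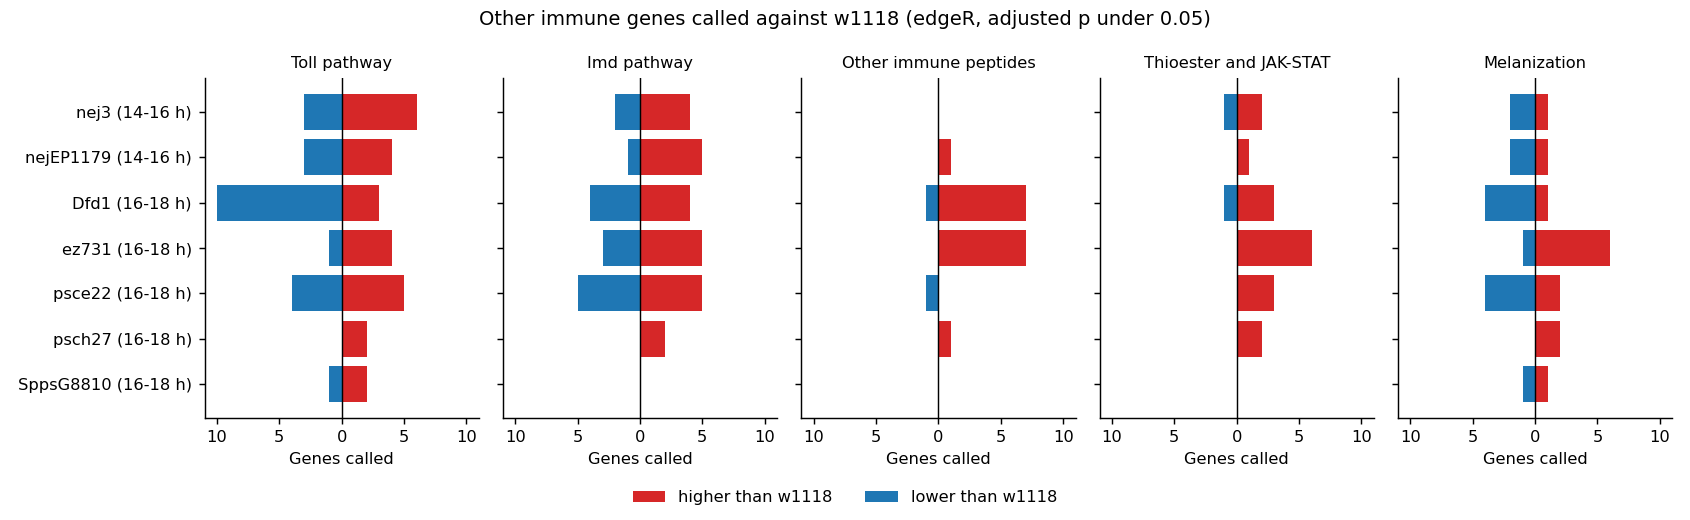
Numbers of genes of each of 5 lists called higher (red, right) or lower (blue, left) than w1118 of the same age by edgeR, with a bar for each labelled mutant group. The other immune peptide genes reach 7 called higher in Dfd1 and in ez731, while Toll pathway genes reach 10 called lower in Dfd1.

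Calls in the signalling lists are read against the shares of all genes called higher and lower, which were 25.5% and 27.0% in Dfd1, 13.2% and 15.8% in ez731, 17.7% and 21.9% in psce22, 3.48% and 4.0% in psch27 and 3.43% and 5.43% in SppsG8810. Of 18 Toll pathway genes 3 rose and 10 fell in Dfd1 (median -0.33), 4 rose and 1 fell in ez731 (0.12), 5 rose and 4 fell in psce22 (0.02), 2 rose in psch27 (0.04) and 2 rose and 1 fell in SppsG8810 (-0.03). In Dfd1 pll rose by 1.23 ± 0.12 (adjusted p = 7.2e-06), and spheroide, a protease homologue of the cascade, fell from 53.9 ± 4.63 to 16.8 ± 1.61 CPM (-1.85 ± 0.20, 1.7e-05). The protease gene Hayan fell in Dfd1 (-0.76 ± 0.08, 1.3e-05), and modSP, the apical protease of the cascade, rose in ez731 (0.75 ± 0.11, 0.00033). Without replicate 1 of Dfd1 the counts were 3 and 8, and without replicate 1 of ez731 5 and 1. For psch27 they were 2 and 2 without its replicate 1.

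Of 22 Imd pathway genes 4 rose and 4 fell in Dfd1 (median 0.02), 5 rose and 3 fell in ez731 (0.11), 5 rose and 5 fell in psce22 (0.07), and 2 rose in psch27 (0.04). Without its replicate 1 psch27 had 2 higher and 1 lower. In SppsG8810 edgeR called 0 (median 0.01), with 4 at an unadjusted p under 0.05 and 2 called by DESeq2. Rel, which encodes Relish, rose in ez731 from 75.3 ± 0.925 to 132 ± 10.8 CPM (0.86 ± 0.11, adjusted p = 0.00014). PGRP-LB, an amidase that degrades peptidoglycan, fell in psce22 (-1.38 ± 0.24, 0.0025), and the receptor gene PGRP-LC fell in Dfd1 (-0.44 ± 0.10, 0.0027) where Uev1A rose (0.40 ± 0.09, 0.0018).

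Of 13 thioester and JAK-STAT genes 3 rose and 1 fell in Dfd1, 6 rose in ez731, 3 in psce22 and 2 in psch27. Without its replicate 1 psch27 had 5 higher. In SppsG8810 edgeR called 0 (0 at an unadjusted p under 0.05, and 0 by DESeq2). Tep2, a relative of Tep4, rose in psce22 from 30.1 ± 2.28 to 65.8 ± 4.72 CPM (1.09 ± 0.16, adjusted p = 0.0015), the group in which Tep4 overlapped w1118. Tep3 fell in Dfd1 (-0.57 ± 0.08, 0.0001), upd3, a cytokine of JAK-STAT, rose in Dfd1 (2.27 ± 0.38, 0.00035), and dome rose in ez731 (0.53 ± 0.09, 0.001). Of 10 melanization genes 1 rose and 4 fell in Dfd1, and 6 rose and 1 fell in ez731. In psce22 2 rose and 4 fell, and in SppsG8810 1 rose and 1 fell. In psch27 2 rose, and 4 without its replicate 1. In Dfd1 the serpin gene Spn27A fell (-1.19 ± 0.12, 1.2e-05), Ddc, which encodes dopa decarboxylase, fell (-2.10 ± 0.30, 0.00015), yellow-f2 fell (-1.32 ± 0.22, 0.00036) and ple, which encodes tyrosine hydroxylase, rose (1.51 ± 0.19, 6e-05).

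Over the 77 genes of the 5 lists 18 rose and 20 fell in Dfd1, 28 rose and 5 fell in ez731, 15 rose and 14 fell in psce22, 9 rose in psch27 and 3 rose and 2 fell in SppsG8810. In Dfd1 and psce22 these shares were at or near those of all genes, and nothing particular to the lists is read from the counts. Without psce22 replicate 2 the 29 calls of psce22 became 9. The 9 calls of psch27 became 21 without its replicate 1, 5 without its replicate 2, and 2, 1 and 3 without w1118 replicates 1, 2 and 3. The 5 calls of SppsG8810 became 1 or 2 without any single library of either group. Without w1118 replicate 1, 2 or 3 Dfd1 had 26, 28 and 32 calls and ez731 24, 25 and 25.

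Markers of the cells that make these proteins were summed beside the immune genes. Of 9 fat body markers tested 4 rose and 2 fell in Dfd1, 3 rose in ez731, and 3 rose and 1 fell in psce22, and the 10 markers of that list summed to 2115 to 2372 CPM in Dfd1, 2301 to 2456 CPM in ez731 and 2063 to 2223 CPM in psce22, against 1317 to 1627 CPM in w1118. In psch27 they summed to 1504 to 2258 CPM and in SppsG8810 to 1563 to 1672 CPM. Their sum was mostly apolpp, the lipid carrier gene, with means of 2095, 2006, 1781 and 1133 CPM in Dfd1, ez731, psce22 and w1118. In Dfd1 Adh, Fbp1, Lsp2 and apolpp rose, and Idgf1 and Idgf2 fell. The 15 hemocyte markers summed to 6325 to 6798 CPM in Dfd1, where 1 rose and 6 fell, and to 11450 to 14050 CPM in w1118. That sum was mostly the collagen genes Col4a1 and vkg, with means of 3722 and 2341 CPM in Dfd1 and 7688 and 4831 CPM in w1118. Hml, NimC1, Sr-CI and srp also fell in Dfd1, NimC4 rose, and the other 8 markers did not pass. At 14-16 h fat body markers summed to 4540 to 4784 CPM in nej3, 4792 to 6093 CPM in nejEP1179 and 4579 to 5035 CPM in w1118, and hemocyte markers to 6640 to 7933, 7413 to 8777 and 6802 to 7922 CPM. The fat body sum was mostly Rfabg, the earlier symbol of apolpp, with means of 4575, 5231 and 4782 CPM in nej3, nejEP1179 and w1118. Of 6 fat body markers tested at that age 4 rose in nej3 (Adh, Idgf1, Idgf2 and Lsp1gamma) and 3 in nejEP1179 (Idgf1, Idgf2 and Lsp1gamma), and none fell in either. Lsp1gamma, a larval serum protein gene, was at 7.26 ± 0.780 CPM in nej3 and 7.49 ± 0.421 CPM in nejEP1179, against 1.94 ± 0.366 CPM in w1118 (SD, n = 4 each). Of 13 hemocyte markers tested 1 rose and 2 fell in each nej group. The hemocyte sums at 14-16 h were mostly Cg25C, the earlier symbol of Col4a1, and vkg. At 14-16 h the hemocyte marker eater and the fat body marker Lsp1alpha were at 0 in all libraries, and at 16-18 h no marker of these lists was. The 10 midgut markers summed at 14-16 h to 53.0 to 64.3 CPM in nej3 and 49.1 to 57.8 CPM in nejEP1179, below the 101.5 to 107.2 CPM of w1118, and 1 of 7 tested rose and 4 fell in each nej group. At 16-18 h they summed to 153 to 165 CPM in w1118, 84.3 to 90.4 CPM in Dfd1, 67.1 to 74.6 CPM in psce22, 76.3 to 233 CPM in psch27, 179 to 267 CPM in SppsG8810 and 290 to 464 CPM in ez731. PGRP-SD was below w1118 in all of these mutant groups, and its relation to the midgut sums was not tested. The 9 embryo markers were detected in every group. The yolk protein and chorion sums were at most 5.91 and 1.5 CPM at 14-16 h. The part of these markers in the levels of the immune genes was not tested.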

How the data were processed

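Messenger RNA was sequenced from 28 libraries of embryos. Per the labels, the authors counted reads per gene with featureCounts on the dm6 build, and the raw counts per gene were deposited in a table per age, with versions not given in the sources used here. The study's methods name STAR within snakePipes for its other short-read data, and the aligner and annotation release behind these tables, which list different numbers of genes, are not given there. The authors' tables per mutant, made with DESeq2, hold fold changes and p-values, which were not used, and a mean normalized count (a signal averaged over the libraries the authors compared, deposited with each table), which served only to find the columns compared, over genes with a mean of at least 10.

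Genes were filtered with filterByExpr, scaled with TMM and fitted once per table in edgeR 4.0.16 by quasi-likelihood (robust, terms for group alone) under R 4.3.3. P-values were adjusted over all genes tested by the Benjamini-Hochberg method with a threshold of 0.05. Replicate files held no copies (chi-square per degree of freedom 2.83 to 131 over 32 pairs). The library titled psh27 was placed with psch27 by its genotype label. Likeness used log2 CPM with a prior count of 2. Positions come from the Ensembl annotation of dm6. The test was checked on simulated counts with a single spread for all genes and changes set only in genes above a minimum level. The check does not cover rare genes or replicates as far apart as those of the peptide genes.

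The members and gene lists were chosen with earlier results of these data known. Named list genes were up to 4 per list and table with the smallest adjusted p against w1118, and the chorion and yolk protein genes, and the genes named where a library was left out, were added after their values were seen. Alternatives were RLE size factors, no filter, DESeq2 1.42.0, only the groups compared, a replicate block, leaving out each library, and psch27 replicate 1 placed with psce22. Python 3.11.15, pandas 2.3.3 and matplotlib 3.10.9 were also used.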

Additional observations from a re-analysis of the deposited data

Results flagged for a closer look

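In 4 of 29 groups of 4 libraries at 14-16 h, 1 library lay outside the rest by Dixon's test. These were Mtk in nejEP1179 (highest library at 0.283 CPM), PGRP-SA in nejEP1179 (lowest library at 0 CPM), IM4 in w1118 (highest library at 0.14 CPM) and AttA in w1118 (only library above 0, at 0.0492 CPM). All rest on a handful of counts. The chance rate of the test, about 1 in 20 groups, holds for continuous normal values, so the 4 of 29 cannot be set against it.

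PGRP-SD differed between the nej alleles (log2 difference 0.52, edgeR adjusted p = 0.045), and 6 of 8 fits with a library left out did not pass. Nor did the edgeR fit on only the nej groups (adjusted p = 0.14). Among the 5 labelled mutant groups at 16-18 h the members that differed by the F test of edgeR were Drsl5 (adjusted p = 8.4e-05), Tep4 (0.00022), Drs (0.0023), PGRP-SA (0.0033), PGRP-SD (0.0033), Mtk (0.0057), IM14 (0.019) and IM1 (0.036), in a test that 78.0% of all genes passed. These values are a description, since the members were picked on these mutants. Drs, PGRP-SA, Mtk and IM1 passed the filter mainly through the libraries where they are high.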

How the results depend on the processing

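Of 907 values of the members under alternatives, 873 were classed as the same, and the 34 others as moved, weaker or stronger. For log2 changes against w1118, which have no test, the same meant a shift within a fixed multiple of the SE. For the other values it meant the same side of the threshold. No change against w1118 larger than its SE reversed, nor any that passed between the alleles. Smaller changes could switch sign and still be classed as the same. Fitted on only the groups compared, nej3 against nejEP1179 gave 563 genes (967 in the joint fit) and 3 list genes (5), psch27 60 genes (851) and 0 list genes (9), and SppsG8810 2783 genes (1007) and 19 list genes (5). DESeq2 called 19 list genes in psch27 and 11 in SppsG8810. With psch27 replicate 1 placed with psce22, psch27 had 1593 genes and 21 list genes and SppsG8810 2071 and 14. The causes were not tested.

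The replicate numbers were not taken as pairs, since the deviations of same-numbered libraries correlated over 0.1 in 5 of 12 pairs at 14-16 h (-0.419 to 0.386) and 12 of 36 at 16-18 h (-0.264 to 0.456). All 3 pairs of ez731 with SppsG8810 did (0.241 to 0.456), which are not compared with each other pairwise. A replicate block left SppsG8810 with 3 list genes, PGRP-SD between the nej alleles at an adjusted p of 0.052 and IM1 among the mutant groups at 0.064. IM1 was at 0.067 without the filter on low counts. With DESeq2 Drsl5 passed between the alleles (adjusted p = 0.0086), and IM4 (0.0097) and AttA (0.02) passed among the mutant groups.

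Leaving out 1 library gave 1980 to 2362 genes and 16 to 21 list genes in nej3, 1906 to 2574 and 12 to 18 in nejEP1179, 626 to 991 and 4 to 6 between the alleles, 4276 to 5438 and 26 to 32 in Dfd1, 2230 to 3066 and 24 to 33 in ez731, 802 to 3685 and 9 to 25 in psce22, 343 to 1557 and 1 to 21 in psch27, 490 to 564 and 1 to 2 in SppsG8810, and 7922 to 9783 and 54 to 68 among the mutant groups. Where Dfd1 or psce22 kept 1 library, that library was assumed to vary like the other groups. The lowest count of psce22 was without its replicate 2, and the highest of psch27 without its replicate 1.

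At 14-16 h 6 of the 10 members were too low to test, and at 16-18 h Mtk, PGRP-SA and AttA rested on few counts. The labels at 16-18 h, the stock background and the adult female transcripts limit what a difference from w1118 can be tied to.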
